A study of Mus musculus with 18 samples.

Results

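The immunoreceptor costimulation pathway of osteoclast precursors was examined through 9 genes, chosen by name: the receptors Oscar and Trem2, the adaptors Tyrobp (DAP12) and Fcer1g (the Fc receptor gamma chain), the kinases Syk, Btk and Tec, the scaffold Blnk and the phospholipase Plcg2. All 9 were found among the 34745 genes of the count table, and all 9 were among the 14241 genes tested. The 18 RNA-seq libraries came from mouse bone marrow-derived macrophages (BMDMs) grown with M-CSF, the growth factor that keeps macrophages alive, and collected before RANKL (day 0) or after 1 or 3 days of M-CSF with RANKL, the cytokine that drives osteoclast formation. On each day 3 libraries were labelled wild type (WT) and 3 were labelled as a knockout of Zmat1 (KO), a gene for a zinc finger protein. The mice were littermates a few weeks old on a C57BL/6 background, and the knockout was global. Whether libraries came from separate animals was not stated, so p-values measure only the spread between these libraries.

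Zmat1 itself had 49 to 99 counts in the 9 libraries labelled KO and 32 to 91 in the 9 labelled WT, so the deletion was not visible in the gene-level counts, and each group is named here by its label. Total counts ran from 13789775 to 17559958 per library. Of the 18 titles 5 were written with a double hyphen (WT day 0 replicate 1, 1 of the WT day 1 libraries numbered 1, KO day 0 replicate 2, KO day 1 replicates 1 and 2), and the day 1 libraries among them sat closer to day 0 for several of the 9 genes. Macrophage markers (8 genes, summed) were at 28624 to 59475 CPM (counts scaled to a fixed library total) on day 0 and at 6203 to 17212 on day 3. This sum leans on Lyz2, which reached 50203 CPM, where the next highest marker, Csf1r, reached 7290 CPM. Of the 8 markers, 7 were lower on day 3 under each label (adjusted p under 0.05, edgeR). Osteoclast markers (8 genes) went from 114 to 887 CPM up to 7966 to 22563 CPM. Other cell types were also read: the 7 stromal markers summed to 105 to 5038 CPM on day 0 and 11412 to 31533 CPM on day 3, while the 8 neutrophil markers went from 662 to 11714 CPM down to 35.8 to 1147 CPM. The 5 platelet markers summed to 75.2 to 380 CPM on day 0 and 24.6 to 87.7 CPM on day 3.

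Osteoclast precursors need a second signal beside RANKL, and it comes from receptors that carry no signalling tail of their own. Trem2 pairs with Tyrobp and Oscar pairs with Fcer1g, and each adaptor has a cytoplasmic immunoreceptor tyrosine-based activation motif (ITAM). When Src family kinases phosphorylate the tyrosines of the motif, Syk docks there, and with the scaffold Blnk and the Tec family kinases Btk and Tec it activates Plcg2, which releases calcium and feeds calcineurin and the transcription factor Nfatc1.

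The ITAM is shown because it separates the adaptors from the other genes of the group. It is 1 tyrosine codon, 2 further codons and a leucine or isoleucine codon, then 6 to 8 codons of any kind and the same arrangement again. In the coding sequences of the GENCODE annotation of GRCm38 the pattern was found once in Tyrobp (codons 92 to 106 of 114) and once in Fcer1g (codons 65 to 79 of 86). Each gene of the group was read from 1 principal transcript, and the other 7 genes held 0. Over all coding genes any protein-coding transcript was counted, and 631 of 21562 genes (2.93%) held at least 1. Both stretches are 45 bases long, with 7 codons between the arms, and the capitals mark the tyrosine and leucine codons:
Tyrobp: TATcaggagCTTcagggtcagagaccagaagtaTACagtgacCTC
Fcer1g: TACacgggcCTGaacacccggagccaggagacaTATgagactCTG
In both genes the intron falls 6 bases into the motif, so exon 4 ends with the first tyrosine codon and the codon after it. The Tyrobp stretch lies on the plus strand at chr7:30415670-30415675 (exon 4) and chr7:30417344-30417382 (exon 5). The Fcer1g stretch lies on the minus strand at chr1:171230067-171230072 (exon 4) and chr1:171229889-171229927 (exon 5).

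The start regions of the 2 receptors are shown because these genes went in opposite directions under RANKL. They are the 250 bases before the RefSeq start (GRCm38.p6), read 5′ to 3′ on the gene's strand, at chr7:3616158-3616407 (minus) for Oscar and chr17:48346151-48346400 (plus) for Trem2. Capitals mark matches on either strand to 5 short motifs: TGANTCA (AP-1), GGAAA (the core of NFAT sites), GAGGAA (PU.1), CACGTG and CATGTG (MITF family):
Oscar: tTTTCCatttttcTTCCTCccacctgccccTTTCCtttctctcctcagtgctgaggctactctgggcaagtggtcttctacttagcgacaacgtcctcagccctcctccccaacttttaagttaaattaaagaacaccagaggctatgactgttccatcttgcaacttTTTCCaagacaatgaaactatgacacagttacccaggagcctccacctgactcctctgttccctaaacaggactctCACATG
Trem2: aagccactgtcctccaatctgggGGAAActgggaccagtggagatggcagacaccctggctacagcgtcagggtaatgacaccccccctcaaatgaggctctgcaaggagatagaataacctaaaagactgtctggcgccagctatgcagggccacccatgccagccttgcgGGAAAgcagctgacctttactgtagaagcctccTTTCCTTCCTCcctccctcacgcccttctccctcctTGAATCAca
Oscar held GGAAA 3 times, GAGGAA once and CATGTG once, the last ending at the base before the start. Trem2 held TGANTCA once, GGAAA 3 times and GAGGAA once, and its GAGGAA lay end to end with a GGAAA on the same strand, without sharing a base. Of 32851 promoters of that length, 6.75% held TGANTCA, 55.6% GGAAA, 23.3% GAGGAA, 6.02% CACGTG and 12.3% CATGTG, so single matches of the shorter motifs are common. The table of promoters matched 8 of the 9 genes, and Tyrobp was not among them.

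Levels of different genes were compared on the deposited FPKM scale, which divides by transcript length. On that scale the adaptors stood above the rest before RANKL. In CPM, which is not divided by length, the WT day 0 means were closer. They were 887 for Tyrobp, 885 for Fcer1g, 734 for Trem2 and 606 for Syk. The order below thus depends on the lengths used for FPKM, which were not checked. In the libraries labelled WT on day 0, Tyrobp was at 1431 ± 247 FPKM (SD, n = 3) and Fcer1g at 501 ± 35.1, against 109 ± 19.7 for Trem2. The signalling proteins were lower, from Syk at 40.1 ± 10.1 FPKM through Blnk (32.5 ± 4.47), Plcg2 (26.2 ± 2.18) and Btk (24.5 ± 3.29) to Tec at 10.1 ± 0.663. Oscar was at 0, 0.0314 and 0 FPKM in these 3 libraries. Neighbours in this order overlapped between Syk and Blnk, Blnk and Plcg2, and Plcg2 and Btk, and did not overlap elsewhere.

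By day 3 the top of the order was the same and the middle had closed up. The libraries labelled WT had Tyrobp at 606 ± 11.5 FPKM, Fcer1g at 163 ± 17.9, Trem2 at 40.7 ± 15.4 and Oscar at 31.4 ± 11.7. Oscar thus overlapped Trem2 above it and Btk (28.8 ± 4.16) below it. Oscar made up 29.7% to 53.3% of the summed FPKM of the 2 receptors in the libraries labelled WT and 16.3% to 58.0% in those labelled KO, and on day 0 at most 0.0433%. The summed FPKM of the 2 receptors still went from 91.5 to 134 on day 0 to 50.6 to 89.6 on day 3. In CPM the 2 receptors were farther apart on day 3. Trem2 was at 214 ± 84.8 and Oscar at 61.5 ± 22.8 under the WT label, and at 270 ± 81.0 and 52.1 ± 39.9 under the KO label. The shares and sums in FPKM thus depend on the lengths used.

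**Figure D1:**
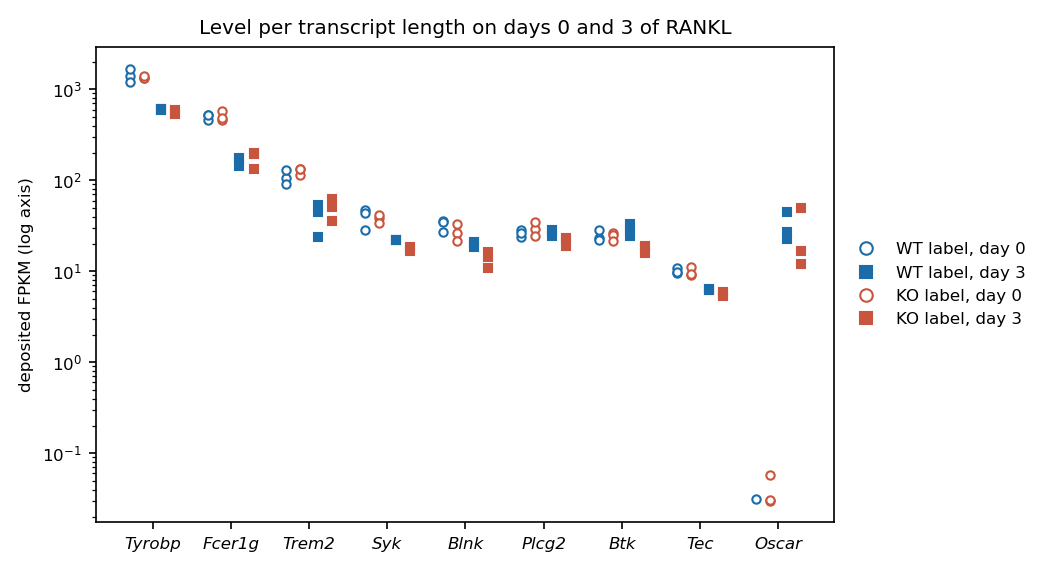
Deposited FPKM (log axis) of the 9 genes on day 0 (open circles) and day 3 (filled squares), 1 point per library, blue for the WT label and red for the KO label. Libraries at 0 (2 of Oscar on day 0) are not drawn. Tyrobp is highest throughout, and Oscar moves from under 0.06 FPKM to between 12.1 and 49.4 FPKM.

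Between day 0 and day 3 of RANKL most of the pathway fell and 1 receptor rose. Under the WT label, 7 of the 9 genes passed between day 3 and day 0 (1 up, 6 down) at an adjusted p under 0.05 (edgeR's quasi-likelihood test, adjusted over all genes), where 50.2% of all genes tested were called (23.7% higher, 26.5% lower). Under the KO label all 9 passed (1 up, 8 down), against 42.5% of all genes (20.2% higher, 22.3% lower). The median log2 fold change of the 9 was -1.09 (WT) and -1.26 (KO), beside -0.03 and -0.01 over all genes. Only Oscar was higher. Libraries of the 2 days did not overlap for 8 of the 9 genes under the WT label (62.5% of all genes) and for 9 of 9 under the KO label (58.8%). With both labels averaged all 9 were called, where 62.9% of all genes were. In bulk RNA, fewer cells of a type and less RNA per cell cannot be told apart. The macrophage, osteoclast, stromal, neutrophil and platelet markers moved over the same days, and their part in these changes was not tested. The library totals behind CPM were adjusted by TMM, the trimmed mean method of edgeR. Scaling by total counts instead placed the median of all genes at 0.33 (WT) and 0.29 (KO) on the log2 scale, and the directions of the 9 genes held on that scale except those of Btk and Plcg2 in the libraries labelled WT.

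**Figure D2:**
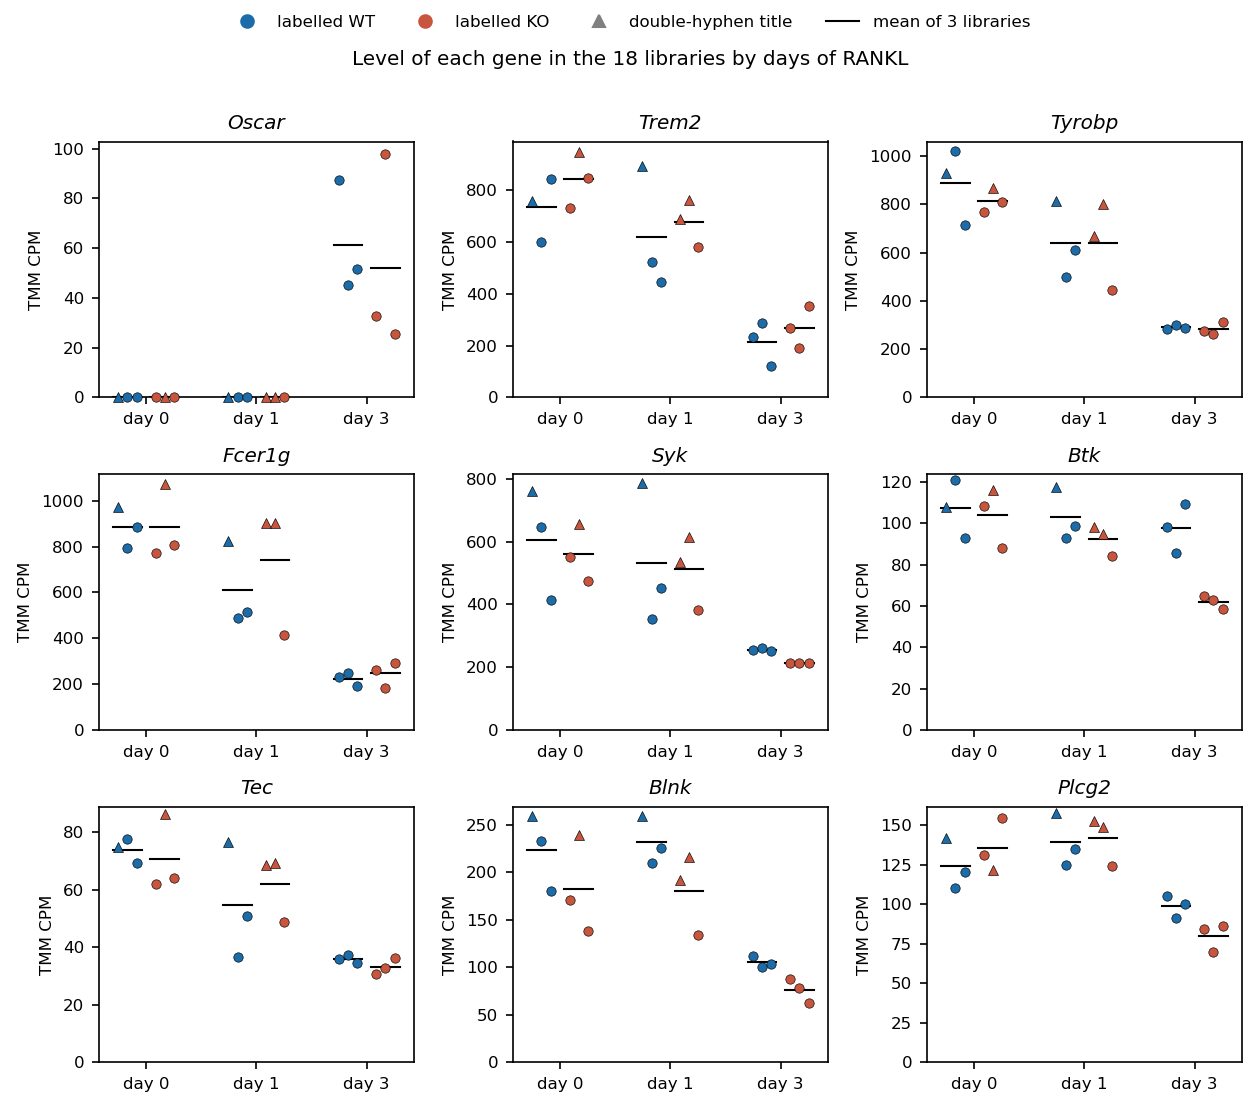
TMM-scaled CPM (vertical axis, from 0) of each gene by day of RANKL, 1 point per library, blue for the WT label and red for the KO label, triangles for the titles with a double hyphen and bars for the mean of 3 libraries. Oscar appears only on day 3, 8 genes are lower on day 3 under the KO label, and Btk overlaps between the days under the WT label.

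Oscar, the collagen-binding receptor that signals through Fcer1g, was nearly absent until day 3. On day 0 it had 0, 1 and 0 counts in the libraries labelled WT and 1, 2 and 1 in those labelled KO, and on day 1 it had 2, 1 and 1 counts (WT) and 0, 1 and 2 counts (KO). On day 3 it reached 1697, 770 and 918 counts in the libraries labelled WT, or 87.6, 45.3 and 51.5 CPM. Those labelled KO had 549, 1602 and 452 counts, or 32.7, 98.0 and 25.6 CPM, so the highest and the lowest values of day 3 both carried the KO label. With 3 counts taken as the floor in each day 0 library, Oscar was at least 266-fold higher on day 3 under the WT label (adjusted p = 1.5e-06, edgeR) and at least 236-fold higher under the KO label (adjusted p = 4.8e-06). Day 1 cannot be ranked against day 0, since both were at or under the floor.

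Trem2, the lipid-binding receptor that signals through Tyrobp, went the other way. It stood at 759, 601 and 842 CPM on day 0 under the WT label and at 235, 286 and 120 CPM on day 3. With the KO label it stood at 732, 947 and 847 CPM on day 0 and at 269, 190 and 351 CPM on day 3. The days did not overlap under either label. Trem2 fell by 1.78 on the log2 scale (SE 0.32, 3.44-fold lower, adjusted p = 0.00052, edgeR) in the libraries labelled WT and fell by 1.64 (SE 0.32, 3.12-fold lower, adjusted p = 0.0013) in those labelled KO.

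Both adaptors fell with Trem2, although Oscar, the partner of Fcer1g, rose. Tyrobp stood at 928, 1022 and 712 CPM on day 0 under the WT label and at 285, 302 and 287 CPM on day 3, with 767, 868 and 810 CPM against 273, 262 and 312 CPM under the KO label. It fell by 1.61 (SE 0.22, 3.05-fold, adjusted p = 5.6e-05, edgeR) and fell by 1.53 (SE 0.22, 2.89-fold, adjusted p = 0.00014). Fcer1g had the largest estimated decrease of the 9 genes under both labels. It stood at 974, 793 and 887 CPM on day 0 and 233, 247 and 190 CPM on day 3 under the WT label, and it fell by 1.99 (SE 0.29, 3.97-fold, adjusted p = 0.00011). Under the KO label it stood at 771, 1073 and 808 CPM and then at 263, 185 and 294 CPM, and it fell by 1.84 (SE 0.29, 3.57-fold, adjusted p = 0.00032). Mast cells and basophils are known for high Fcer1g. Their 7 markers summed to 2.09 to 47.8 CPM on day 0 and 2.53 to 13 CPM on day 3, and the highest count in any library ran from 2 (Tpsb2) to 241 (Kit) and 259 (Prss34). Their part in the level of Fcer1g was not tested.

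Among the kinases, Syk and Tec fell under both labels and Btk was called under the KO label alone. Syk, the kinase that docks on the phosphorylated ITAM, stood at 760, 646 and 413 CPM on day 0 and at 256, 260 and 250 CPM on day 3 under the WT label. In the libraries labelled KO it went from 550, 658 and 474 CPM to 214, 212 and 213 CPM. Its libraries were thus widely spread on day 0 and nearly equal on day 3. Syk fell by 1.25 (SE 0.27, 2.37-fold, adjusted p = 0.0020, edgeR) and fell by 1.40 (SE 0.28, 2.63-fold, adjusted p = 0.0014).

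Tec, the founding member of the Tec kinase family, stood at 74.7, 77.5 and 69.2 CPM on day 0 and at 35.9, 37.4 and 34.5 CPM on day 3 under the WT label, and at 62.0, 86.1 and 64.0 CPM against 30.7, 32.7 and 36.2 CPM under the KO label. It fell by 1.04 (SE 0.22, 2.05-fold, adjusted p = 0.0013, edgeR) and fell by 1.09 (SE 0.22, 2.13-fold, adjusted p = 0.0014). The position of Tec overlaps 1 other annotated gene on the same strand, Gm43499, so its reads may be shared. Btk, the Tec family kinase needed for B cell development, stood at 108, 121 and 93.0 CPM on day 0 and at 98.3, 85.6 and 109 CPM on day 3 under the WT label, where the days overlapped (log2 fold change -0.13, SE 0.14, adjusted p = 0.42). Under the KO label it went from 108, 116 and 88.1 CPM to 64.9, 62.7 and 58.3 CPM with no overlap, and it fell by 0.75 (SE 0.14, 1.68-fold, adjusted p = 0.00080). Under total counts the WT value was 0.24 and not called, and the KO value was -0.45 and called.

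Blnk, the scaffold that brings Btk and phospholipase C gamma together, fell under both labels. It stood at 259, 232 and 180 CPM on day 0 and at 112, 100.2 and 104 CPM on day 3 under the WT label, and at 171, 239 and 138 CPM against 87.6, 77.9 and 63.0 CPM under the KO label. It fell by 1.09 (SE 0.21, 2.12-fold, adjusted p = 0.00093, edgeR) and fell by 1.26 (SE 0.22, 2.40-fold, adjusted p = 0.00052). Plcg2, the phospholipase at the end of the chain, stood at 142, 110 and 120 CPM on day 0 and at 105, 91.3 and 99.98 CPM on day 3 under the WT label. These days did not overlap, but the difference was not called (log2 fold change -0.33, SE 0.14, adjusted p = 0.058), and it was 0.04 under total counts. Under the KO label Plcg2 went from 131, 121 and 155 CPM to 84.3, 69.7 and 86.2 CPM and fell by 0.76 (SE 0.14, 1.69-fold, adjusted p = 0.00076).

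B cells also use Syk, Btk, Blnk and Plcg2, and their markers moved over the same days. The 10 B cell markers summed to 405 to 469 CPM on day 0 and 32.7 to 48.9 CPM on day 3 under the WT label, and to 412 to 651 CPM and 75.2 to 163 CPM under the KO label. T and NK cell markers (8 genes) stayed between 0 and 9.32 CPM in every library. The part of B cells in the values of these genes was not tested.

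**Figure D3:**
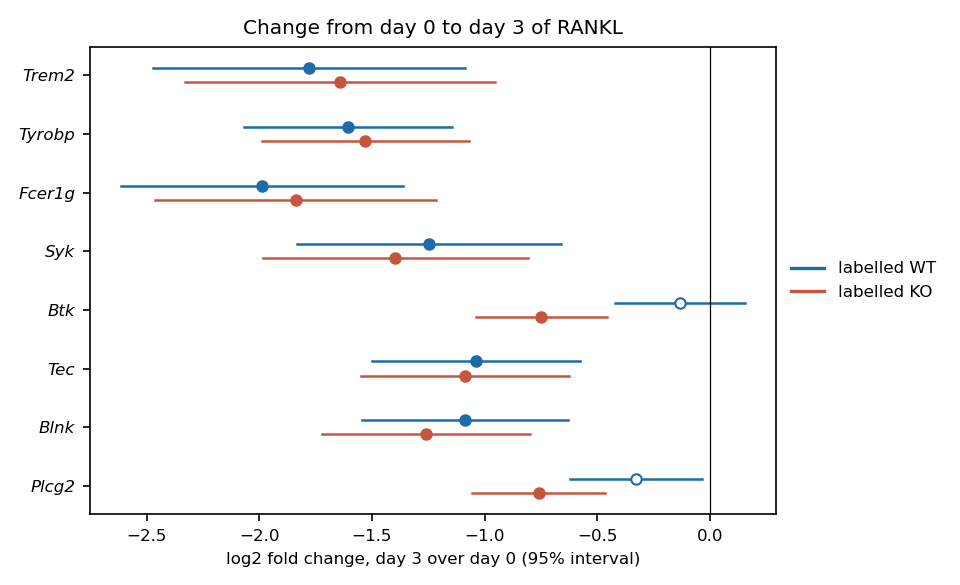
Log2 fold change of 8 genes from day 0 to day 3 (horizontal axis) with its 95% interval, blue for the WT label and red for the KO label, filled where the adjusted p was under 0.05 and open where it was not. Oscar is left out because its day 0 counts were at the floor. The receptor Trem2 and the adaptors lie farthest to the left, and Btk and Plcg2 lie closest to 0 under the WT label.

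After 1 day of RANKL 0 of the 9 genes were called by edgeR. In the libraries labelled WT 2.35% of all genes were called between day 1 and day 0, and 1 of the 9 passed an unadjusted p under 0.05, where 20.5% of all genes did (Tyrobp, log2 fold change -0.47, SE 0.21, adjusted p = 0.22). In those labelled KO 0.0211% of all genes were called, and 0 of the 9 passed at an unadjusted p, where 10.2% of all genes did. DESeq2 also called 0 of the 9 under either label. Without the double-hyphen library among the WT day 1 libraries, Tec was called (log2 fold change -0.75, adjusted p = 0.021, edgeR), 1 of the 9 where that fit called 12.4% of all genes. Its day 1 libraries under the WT label stood at 76.4 CPM (double hyphen), 36.6 CPM and 50.9 CPM, and under the KO label at 68.5 and 69.1 CPM (both double hyphen) and 48.7 CPM. The same split by title was seen on day 1 for Fcer1g, at 823 against 489 and 515 CPM (WT) and 904 and 905 against 417 CPM (KO).

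Most of the 9 genes were also called between day 1 and day 3. Under the WT label 8 of the 9 were called (1 higher, 7 lower), where 32% of all genes were (12.7% higher, 19.3% lower), and Btk was the exception (log2 fold change -0.08, adjusted p = 0.69, edgeR). The call of Tec held in 3 of 18 alternatives, and with total counts Tec (adjusted p = 0.20) and Plcg2 (adjusted p = 0.30) were lost, which left 6 (30.7% of all genes). Without the double-hyphen WT day 1 library 5 of the 9 remained called (20.3% of all genes), and Syk (-0.64, adjusted p = 0.071), Tec (-0.26, adjusted p = 0.33) and Plcg2 (-0.37, adjusted p = 0.083) did not. Under the KO label all 9 were called, where 28% of all genes were. With all 5 double-hyphen libraries left out, a setting chosen after seeing the data that leaves 1 KO day 1 library, Oscar alone was called of the 9, where 4.04% of all genes were. That lone library was assumed to vary like those of the other groups, and the fold changes of the lost genes ran from -1.07 (Trem2) through -0.81 (Syk) and -0.77 (Blnk) to -0.40 (Btk) on the log2 scale. Between day 0 and day 3 the same setting left every gene but Oscar lower under both labels. The log2 fold changes of those genes ran from -1.85 (Fcer1g) to -0.07 (Btk) under the WT label. Under the KO label they ran from -1.62 (Fcer1g) to -0.61 (Btk).

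The balance within 4 functional pairs was tested as the log2 ratio of CPM on day 3 against day 0, averaged over both labels, by an exact 2-sided permutation of the days within each label (400 orders, smallest possible p 0.005, adjusted over the 4 pairs). Oscar rose against Trem2, with no overlap between the days (exact permutation, adjusted p = 0.010). The size depends on the prior count added to Oscar's zeros and is not given. Because Oscar rose and Trem2 fell without overlap under each label, this outcome was fixed in advance and adds nothing to those results. The ratio of Plcg2 to Plcg1, the other phospholipase C gamma, fell by 1.05 on the log2 scale (exact permutation, adjusted p = 0.010). This averages -0.61 under the WT label and -1.50 under the KO label, with log2 ratios of 1.92 to 2.46 on day 0 and 0.46 to 1.74 on day 3. It is not a fall of Plcg2 alone, since the mean of Plcg1 was higher on day 3. Plcg1 went from 28.3 ± 2.49 to 34.8 ± 6.28 CPM under the WT label and from 28.3 ± 1.54 to 47.6 ± 6.22 CPM under the KO label. Tec fell against Btk by 0.62 (exact permutation, adjusted p = 0.013), from -0.80 to -0.43 on day 0 to -1.66 to -0.69 on day 3. The change was -0.90 under the WT label, where the days did not overlap, and -0.34 under the KO label, where they did. Differences between the labels in these ratios were not tested. Fcer1g fell against Tyrobp by 0.36 (exact permutation, adjusted p = 0.035), but the days overlapped, at -0.37 to 0.32 and -0.59 to -0.05. Without WT day 0 replicate 3 that change was -0.28 with an adjusted p of 0.085 (exact permutation), and 8 of the 12 libraries ended the call when left out.

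The labels were compared on each day to see whether the KO label changed the pathway. With edgeR 0 of the 9 genes were called on day 0 (0.119% of all genes), on day 1 (0.112%) or on day 3 (0.14%), and DESeq2 called 0 of them on days 0 and 1. At an unadjusted p under 0.05, 0 of the 9 passed on day 0 (7.59% of all genes) and on day 1 (7.9%), and 3 passed on day 3, all lower under the KO label (10.7%). On day 3 the libraries of Btk, Plcg2, Blnk and Syk did not overlap between the labels and were lower under the KO label (4 of 9, against 13.3% of all genes lower without overlap). These day 3 libraries all have titles with a single hyphen.

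Btk had the largest of these differences. On day 3 it stood at 98.3, 85.6 and 109 CPM under the WT label and at 64.9, 62.7 and 58.3 CPM under the KO label, a log2 fold change of -0.66 (SE 0.14, 1.58-fold lower, adjusted p = 0.088, edgeR). DESeq2 called it (log2 fold change -0.65, adjusted p = 0.0012), as did limma on log2(FPKM + 1) (-0.67, adjusted p = 0.014), and over all alternatives its adjusted p ran from 0.0012 to 0.43. On day 0 the labels differed by -0.04 (95% interval -0.33 to 0.25) and on day 1 by -0.16 (-0.45 to 0.13). The test of the difference between day 3 and day 0 gave -0.61 for Btk (SE 0.19, adjusted p = 0.91, edgeR), and 0 genes were called in it anywhere in the table by edgeR, with 5.4% at an unadjusted p under 0.05, while DESeq2 called 4 genes and limma 7, none of them among the 9. Btk lies on the X chromosome (chrX:134542336-134583570, minus strand), 388 kb from Zmat1 (chrX:134971372-135009209).

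Plcg2 on day 3 differed by -0.30 (95% interval -0.60 to -0.01, adjusted p = 0.45, edgeR) and its test of day 3 against day 0 between the labels gave -0.43 (adjusted p = 0.91). Blnk was lower under the KO label on each day, by 0.29 on day 0, 0.36 on day 1 and 0.47 on day 3 in size on the log2 scale, with means of 183 ± 51.6, 180 ± 42.2 and 76.2 ± 12.4 CPM against 224 ± 40.0, 231 ± 25.5 and 105 ± 5.89 CPM. Averaged over the days Blnk differed by -0.37 (SE 0.12, adjusted p = 0.12, edgeR) and Btk by -0.29 (SE 0.08, adjusted p = 0.073). This average takes libraries of different days as independent. With edgeR 0 of the 9 were called, where 1.59% of all genes were, and DESeq2 called Btk alone. At an unadjusted p under 0.05, 2 passed (Blnk and Btk), where 18.4% of all genes did. Without WT day 0 replicate 3 both were called, Blnk with an adjusted p of 0.042 and Btk of 0.020 (edgeR), in a fit that called 10.5% of all genes. Syk on day 3 stood at 256, 260 and 250 CPM against 214, 212 and 213 CPM, and with a difference of -0.26 (95% interval -0.84 to 0.32) it was not called.

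The receptors and adaptors were not called between the labels on day 3, and the intervals leave room for moderate changes. Oscar differed by -0.24 (95% interval -1.15 to 0.67), and leaving out 1 of 3 libraries (WT replicate 1, KO replicate 1 or KO replicate 3) turned its sign. Trem2 differed by 0.34 (-0.33 to 1.01), Fcer1g by 0.15 (-0.46 to 0.75) and Tyrobp by -0.05 (-0.50 to 0.40). Tec differed by -0.11 (-0.57 to 0.34). The 7 stromal markers summed to 20696 to 31533 CPM on day 3 under the KO label, against 11412 to 15358 CPM under the WT label. That sum leans on Col1a1 and Col1a2, which reached 12061 and 9813 CPM. The sum of the 10 B cell markers was also higher under the KO label on day 3. The 8 neutrophil markers summed to 97.6 to 1147 CPM under the KO label and 35.8 to 66.9 CPM under the WT label on day 3, and to 3650 to 11714 CPM against 662 to 3012 CPM on day 0. Neutrophils are known to express Fcer1g, Tyrobp, Syk and Btk. The 8 osteoclast markers summed to 7966 to 17115 CPM under the KO label and 15313 to 22563 CPM under the WT label on day 3. Taken singly, 0 of the stromal, B cell, neutrophil and osteoclast markers tested were called between the labels on day 3 (edgeR). Over all genes 0.14% were. Averaged over the days, 2 B cell and 3 neutrophil markers were called, all higher under the KO label, where 1.59% of all genes were called. The part of these cell types in the label differences was not tested.

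**Figure D4:**
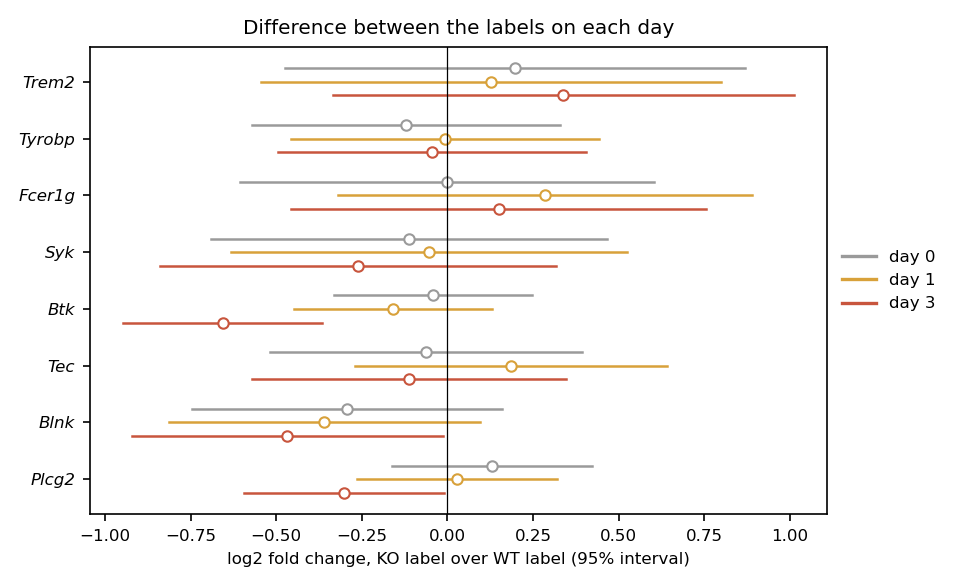
Log2 fold change of the KO label over the WT label (horizontal axis) with its 95% interval for 8 genes, grey for day 0, yellow for day 1 and red for day 3. All points are open because no adjusted p was under 0.05, and the interval of Btk on day 3, -0.95 to -0.37, lies farthest from 0.

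The rest of the pathway was read from 107 further genes, of which 105 were in the table and 100 were tested. Under the WT label 13 rose, 57 fell and 30 were not called between day 0 and day 3, and under the KO label 14 rose, 56 fell and 30 were not called. Over all genes tested 23.7% rose and 26.5% fell under the WT label, and 20.2% and 22.3% under the KO label. These are the shares to set beside each list below. Between the labels on day 3, 0 of the 100 were called by edgeR, and 14 passed an unadjusted p under 0.05, beside the 10.7% of all genes given above. Receptors and inhibitors mostly fell, while calcium genes were split.

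Of the 24 other receptors of this kind 18 fell and 2 rose under the WT label (median log2 fold change -2.22). The sialic acid-binding receptor Siglec15, which also signals through Tyrobp, rose with Oscar, from at most 3 counts in any WT day 0 library to 55.7 ± 11.8 CPM on day 3 (SD, n = 3), at least 241-fold higher, and was at least 187-fold higher under the KO label. Pira2, a paired receptor of the Fcer1g kind, was 4.57-fold higher under the WT label (log2 fold change 2.19, adjusted p = 0.00015, edgeR) and 1.98-fold higher under the KO label (adjusted p = 0.025), though the family has close copies that could share reads. Fcgr1, the high affinity IgG receptor, fell from 352 ± 174 to 21.0 ± 12.8 CPM (16.8-fold, adjusted p = 7.3e-05, edgeR), and 10.2-fold under the KO label. Klrk1 and Trem3 also fell under the WT label, 20.7-fold and 19.2-fold from 2.47 ± 1.54 and 4.74 ± 3.01 CPM, and under the KO label 7.94-fold and 9.85-fold from 2.24 ± 1.08 and 19.8 ± 12.6 CPM.

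Of 13 other kinases 2 rose and 6 fell. Src, which phosphorylates ITAMs and is needed for bone resorption, rose from 11 ± 2.47 to 216 ± 42.0 CPM (19.7-fold, adjusted p = 7.5e-06, edgeR), and under the KO label from 17.6 ± 3.51 to 133 ± 38.7 CPM (7.56-fold, adjusted p = 0.00011). The catalytic subunits of phosphoinositide 3-kinase were split: under the WT label Pik3cb was 2.83-fold higher and Pik3cd 3.15-fold lower, and under the KO label 1.80-fold higher and 3.06-fold lower. Bmx, another Tec family kinase, fell from 2.43 ± 1.38 to 0.176 ± 0.205 CPM under the WT label (adjusted p = 0.0052) and from 6.08 ± 2.88 to 1.12 ± 0.413 CPM under the KO label (adjusted p = 0.026).

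Of 16 scaffolds and lipid enzymes 1 rose and 9 fell under the WT label. Lat, the scaffold best known from T cells, rose from 1.08 ± 0.713 to 6.91 ± 1.46 CPM (adjusted p = 0.0056, edgeR), and under the KO label it was not called (adjusted p = 0.054). Fyb and Gab3 fell 4.02-fold and 2.99-fold. Grap2 was at most 3 counts in each WT day 3 library, from 1.04 ± 0.800 CPM on day 0, which puts it at least 6.22-fold lower.

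The 23 calcium and NFAT genes were split in both directions, as all genes were. Under the WT label 8 were up and 8 down (median -0.02, beside -0.03 over all genes). Under the KO label 8 were up and 6 down, and the values that follow are under the WT label. The coactivator gene Ppargc1b rose from 3.00 ± 1.13 to 42.3 ± 8.67 CPM (adjusted p = 4.2e-06, edgeR). Itpr3, a calcium release channel, rose from 19.0 ± 11 to 136 ± 23.0 CPM (adjusted p = 0.00013). Camk4 rose too, from 0.0953 ± 0.165 to only 1.16 ± 0.373 CPM. Camk1d, Nfatc2 and the plasma membrane calcium channel Orai1 fell 3.98-fold, 3.14-fold and 2.40-fold.

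Of 24 inhibitors, the receptors and phosphatases that oppose ITAM signals, 16 fell and 0 rose under the WT label. Fcgr2b, the inhibitory IgG receptor, fell from 1137 ± 312 to 138 ± 61.1 CPM (8.25-fold, adjusted p = 0.00027, edgeR), and under the KO label from 905 ± 95.5 to 220 ± 90.5 CPM (4.12-fold, adjusted p = 0.0045). Cd300a fell 7.49-fold. Cd300lf fell 5.71-fold under the WT label (adjusted p = 0.029) and was not called under the KO label (adjusted p = 0.10). Activating and inhibitory receptors thus fell on the same days.

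**Figure D5:**
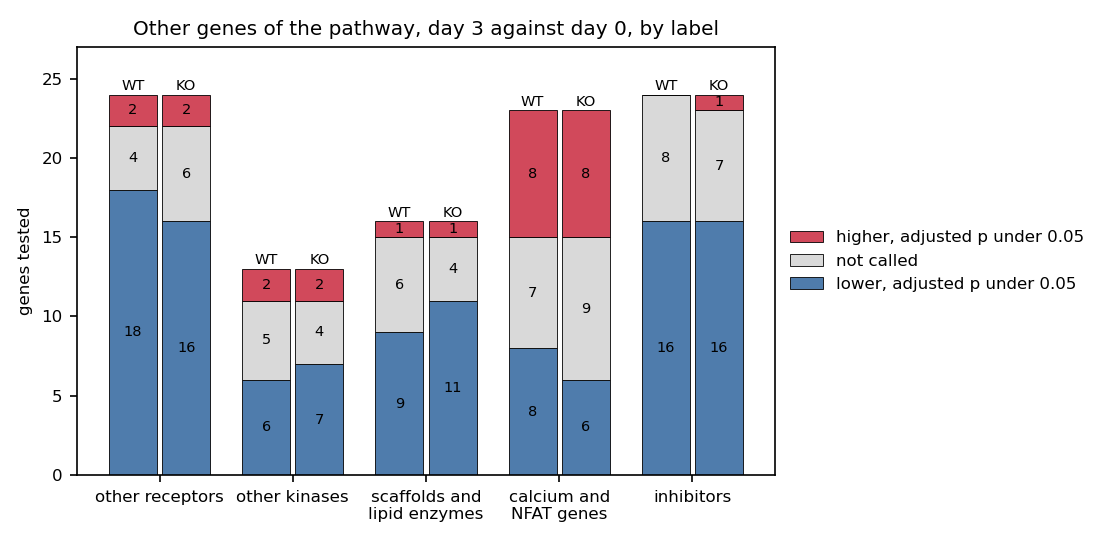
Number of other pathway genes tested (vertical axis) that were higher (red), lower (blue) or not called (grey) on day 3 against day 0, with the WT label on the left and the KO label on the right of each pair of bars. Receptors and inhibitors are mostly lower, with 18 of 24 and 16 of 24 under the WT label, and the calcium genes hold 8 in each direction there.

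The genes whose levels followed Oscar most closely over the 18 libraries were found by the root mean square difference of centred log2 CPM, where 0 would be the same course. They were Nyap2 (0.57), Mst1r (0.76), Mt3 (0.78), Calcr (0.82) and Ctsk (0.89). These differences depend on the prior count of 2 added before the log, since Oscar was at the floor before day 3. Nyap2 and Calcr were at 0 CPM on day 0 under both labels. Calcr, the calcitonin receptor, and Ctsk, the collagen-degrading protease cathepsin K, are osteoclast genes. Ctsk went from 19.0 to 4776 CPM under the WT label and from 23.3 to 3194 CPM under the KO label (group means). Among the nearest to Trem2 were Sash3 (0.18), Lgmn (0.19), Abhd12 (0.19) and Mgst1 (0.20), and these were lower on day 3.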

How the data were processed

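The authors deposited 1 table with whole-number read counts and FPKM values for 34745 genes in 18 libraries. Per the labels the processing notes name StringTie, GRCm38.p4 and mm10, and the methods name StringTie and Ballgown for the FPKM deposited. The aligner and counter were not given in the sources used here. The test was that of edgeR 4.0.16 (R 4.3.3), on the deposited counts: filterByExpr, TMM scaling, 1 quasi-likelihood fit of 6 groups and 18 libraries, Benjamini-Hochberg adjustment over 14241 genes, calls at adjusted p under 0.05. A group with 3 counts or fewer in each library was taken as at the floor, and folds against it use 3 counts per library. Intervals and floors cover counting error or spread between libraries only. DESeq2 1.42.0 and limma 3.58.1, on log2(FPKM + 1), served as alternatives. The fit was tested on simulated counts in which few genes changed, as many up as down. Scaling when many genes change was not tested by it. The 9 genes and all lists were chosen with earlier results of these data known.

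Other pathway genes were named as up to 3 per direction and list, by WT log2 fold change on day 3 against day 0 among called genes without overlap, and the 5 genes closest to Oscar and Trem2 were added. Some genes that this rule names are not reported here. Cd300c2 and Pira6 of the receptor list had no line in the table, and Itgam had 2, of which the higher was used. Same-numbered libraries of the KO label correlated at 0.13 to 0.40 between day 0 and day 3 (3 of 3 pairs over 0.1), and differently numbered ones at -0.278 to 0.155. The 2 ranges overlap, so the numbers did not clearly pair the libraries. Under the WT label 1 of 3 same-numbered pairs was over 0.1. Same-numbered KO libraries correlated at 0.05 to 0.60 between day 0 and day 1, and at 0.16 to 0.34 between day 1 and day 3. Differently numbered KO libraries reached 0.32 and 0.19 there. Replicate numbers were therefore taken as a block only in alternatives.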

Additional observations from a re-analysis of the deposited data

How the results depend on the processing

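Of 653 recomputed values of single genes, 645 kept their direction. The exceptions were Btk and Plcg2 in WT day 3 against day 0, at 0.24 and 0.043 with total counts in place of TMM and at 0.22 and 0.041 with limma on log2(FPKM + 1), and, on day 3 between the labels, Oscar at -1.08 to 0.11 and Tyrobp at -0.12 to 0.0061 when 1 library was left out. The reversed values were not called. The number of the 9 genes called on day 3 against day 0 was 7 (WT) and 9 (KO) in every alternative run. In the main fit 50.2% (WT) and 42.5% (KO) of all genes were called. Averaged over labels it was 8 with total counts and with limma, where Btk was lost.

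Other counts moved. WT day 1 against day 0 gave 1 without the double-hyphen day 1 library (12.4% of all genes called) and 1 without all 5 double-hyphen libraries (7%). WT day 3 against day 1 gave 5 to 8 when 1 library was left out and 6 with total counts, and KO day 3 against day 1 gave 1 without the 5 double-hyphen libraries, which removes 2 of 3 day 1 libraries (4.04% of all genes). KO against WT on day 3 gave 1 with total counts (0.14% of all genes), with title style as a covariate (0.358%), with DESeq2 (1.65%) and with limma (0.786%). Averaged over days it gave 2 with title style (9.68% of all genes), 1 without the 5 double-hyphen libraries (2.28%), 1 with DESeq2 (6.89%), and 0 to 2 when 1 library was left out (10.5% without WT day 0 replicate 3). The change in the ratio of Fcer1g to Tyrobp ran from -0.45 to -0.28 when 1 library was left out. Beyond the construction of these settings the cause was not tested.

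With the replicate number as a block, WT day 3 against day 1 gave 7 calls, and 6 with the replicate block within label, where Tec and Syk were lost. It changed no other count of the 9 genes called. With the WT label the numbers did not pair the libraries, and WT day 1 has 2 libraries numbered 1 and none numbered 3. Fitting only the compared libraries gave no separate value for the average over days, which uses all 18. With 0 to 2 counts of Oscar per library before day 3 those groups cannot be ranked, and 3 libraries per group limit the differences between labels that could be called.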
